A study of Rattus norvegicus with 8 samples.

Results

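The genes described here encode the plasma membrane, vesicular and lysosomal proteins that carry amino acids, small peptides and neurotransmitters in the Slc1, Slc3, Slc6, Slc7, Slc15, Slc17, Slc32, Slc36, Slc38 and Slc43 families. Members were chosen by gene symbol: all probes of the array whose symbol belongs to these families, leaving out Slc7a1. The locus LOC298340 was counted as Slc6a14, its current symbol, while 5 other probes for relatives under locus names were not taken in, a choice made with earlier results known. They were 60 probes for 59 genes among the 22523 probes (21558 gene symbols) of an Illumina RatRef-12 BeadChip, on which each probe is read from a set of beads as a fluorescence intensity. Enamel organ, the layered epithelium that forms tooth enamel, was dissected from the incisors of 4 male Wistar Hannover rats, 4 weeks old, whose mandibles had been frozen and lyophilized. Each rat gave a secretory-stage and a maturation-stage sample, so there were 4 arrays per stage, and maturation was compared with secretory throughout. The dissected layer holds ameloblasts, the enamel-forming cells, together with the other cells of the enamel organ and whatever adhered to it.

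Amino acids cannot cross a membrane unaided. Some carriers draw on the sodium or proton gradient to concentrate amino acids in the cell, others exchange an amino acid on one side for another on the other side, and still others load synaptic vesicles or empties lysosomes. In the secretory stage ameloblasts make and export large amounts of enamel matrix protein, which needs a steady supply of amino acids, whereas in the maturation stage the matrix is degraded and resorbed while mineral is added. Glutamate, glycine and γ-aminobutyric acid (GABA) are both metabolites and transmitters, so carriers first described at synapses are also found in epithelia.

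The summed signal of an array ranged from 11881691 to 12046793 in the secretory stage and from 13355073 to 16122665 in the maturation stage, and 10667 to 10941 and 11164 to 11450 probes were detected (detection p below 0.05). For maturation replicates 2, 3 and 4 one label, the source name, gives the other stage than the title, description and tissue do. Each of the 8 arrays correlated more with the arrays of its titled stage than with the others, and the titles were used. Of the 5 probes listed for secretory ameloblasts 3 were lower in maturation (Dspp, Enam and Mmp20). Dspp is not specific to ameloblasts, and which cells gave its signal was not tested. Amelx, at -0.53, and Ambn, at -0.36 on the log2 scale, were not called. All 5 probes for maturation ameloblast markers were higher (Klk4 by 2 probes, Car6, Slc24a4 and Slc26a1).

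Values below are normalized log2 signals, and a fold change is the maturation mean minus the secretory mean on that scale, with its standard error (SE) from limma and n = 4 per stage. A probe was called at a Benjamini-Hochberg adjusted p below 0.05 over all probes and a fold of at least 1.8 (0.85 on the log2 scale). Of the 60 carrier probes 16 (26.7%) were called, against 7.75% of all probes. There were 10 higher in maturation, where 4.60% of all probes were, and 6 lower, where 3.15% were. Detection differed between these backgrounds, since 45 of the carrier probes were detected on at least 1 array, 22 of them on all 8, and 15 on none. Among the 45, 35.6% were called, against 12.9% of all probes detected on at least 1 array. Of the 217 probes of other solute carrier families 16.1% were called, and 23.3% of the 150 detected on at least 1 array. The median fold change of the carriers, 0.03, lay near that of all probes, -0.01, while the median size of the change was 0.22 against 0.12. Both directions were present, and the calls lay in 8 of the 10 families, all but Slc3 and Slc32. In 23 of the 60 probes the arrays of the stages did not overlap, a share of 38.3% against 27.7% of all probes and 37.3% of other solute carrier probes. Among probes detected on at least 1 array these shares were closer, at 51.1%, 43.1% and 52.0%. With the 8 arrays taken as unpaired, such a separation gives p = 0.0286 in a two-sided exact permutation test, the smallest p that 4 arrays against 4 allow, and all 16 called probes had it. Exchanging the stages within each rat allows 16 arrangements, and the smallest two-sided exact p is then 0.125.

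**Figure D1:**
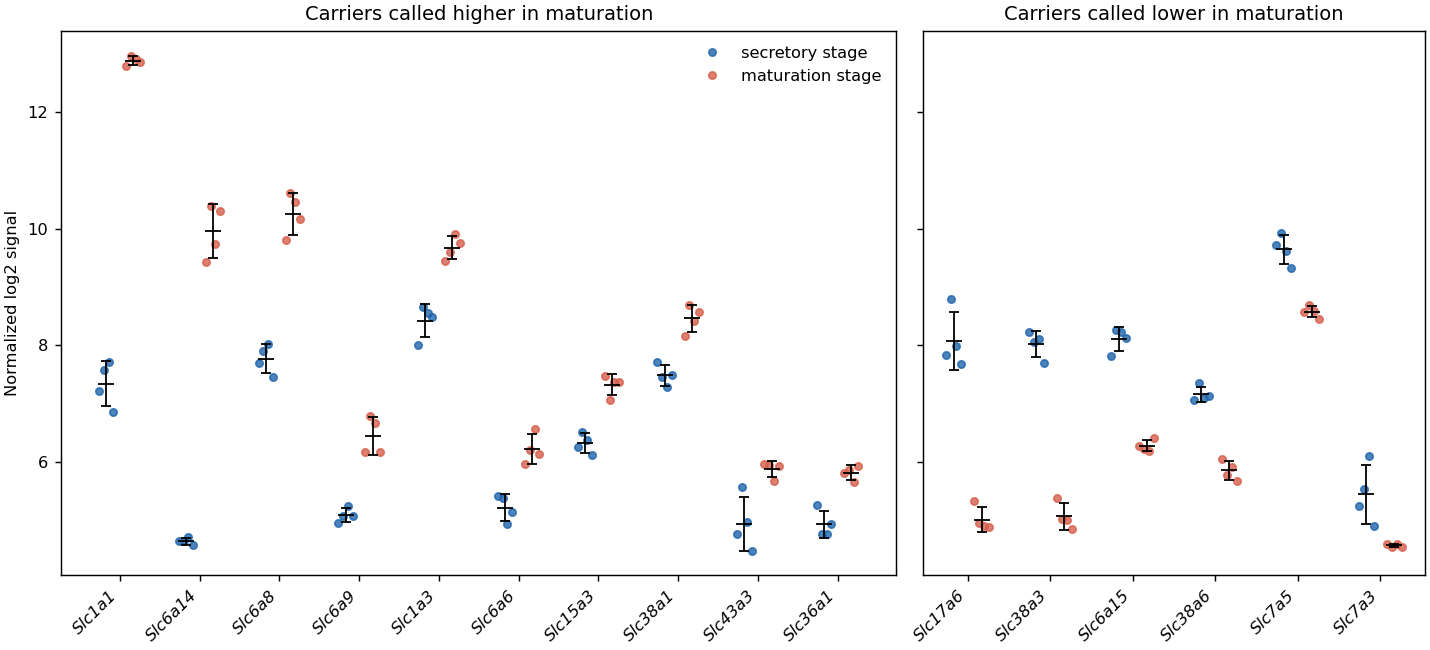
Normalized log2 signal (vertical axis) of the 16 called carriers on the 8 arrays, 4 secretory-stage points in blue and 4 maturation-stage points in red, with the mean and SD of each stage in black. In each gene the points of the stages are apart, and Slc1a1 and Slc6a14 show the widest gaps, 5.53 and 5.32.

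Among the carriers of glutamate and aspartate at the plasma membrane, 2 of 5 rose and none fell. Slc1a1 encodes EAAT3, the sodium-driven glutamate, aspartate and cysteine carrier of many epithelia and neurons. Its signal was 7.22, 7.58, 7.71 and 6.86 on the secretory-stage arrays of rats 1 to 4 and 12.78, 12.96, 12.91 and 12.86 on the maturation-stage arrays. The lowest maturation value thus stood far above the highest secretory value, and the change of 5.53 (SE 0.165, adjusted p = 3.98e-08) was a 46.2-fold rise. Slc1a3 encodes EAAT1, the glutamate and aspartate carrier known best from glia. It read 8.01, 8.66, 8.55 and 8.48 in the secretory stage and 9.44, 9.60, 9.91 and 9.75 in the maturation stage, a rise of 1.25 (SE 0.148, adjusted p = 0.00016). Slc1a2, the main glutamate carrier of astrocytes, was detected on all 8 arrays at 5.11 to 5.77, with a difference of 0.02 (95% interval -0.37 to 0.41). Slc1a6 was detected on 1 secretory and 3 maturation arrays and not called, and Slc1a7 on none.

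The same family holds carriers of neutral amino acids. Slc1a5, the ASCT2 exchanger that takes up glutamine, read 6.21, 6.74, 6.94 and 6.69 in the secretory stage and 7.20, 7.32, 7.49 and 7.48 in the maturation stage. The stages did not overlap, but the difference of 0.73 (SE 0.145, adjusted p = 0.00399) stayed under the fold threshold. Slc1a4, the serine and alanine exchanger ASCT1, differed by 0.13 and was detected on 4 arrays in all.

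Heteromeric carriers are built from a heavy chain of the Slc3 family, which brings the complex to the membrane, and a light chain of the Slc7 family, which carries the amino acid. Slc3a2, the heavy chain 4F2hc that serves most light chains, read 11.83, 11.82, 11.74 and 11.73 in the secretory stage and 11.92, 11.94, 12.02 and 11.95 in the maturation stage. The difference of 0.18 (SE 0.0551, adjusted p = 0.0368) was small, although every maturation array lay above every secretory array, and with the rat as a block its adjusted p was 0.0926. Slc7a5, its light chain LAT1, imports leucine and other large neutral amino acids. It fell from 9.72, 9.93, 9.61 and 9.32 to 8.58, 8.69, 8.59 and 8.46, a change of -1.07 (SE 0.119, adjusted p = 0.000106). The heavy chain and this light chain thus had differences of opposite sign.

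Of the other light chains none was called. Slc7a7, the y+LAT1 exchanger for basic and neutral amino acids, read 9.10, 9.27, 9.19 and 9.36 and then 9.0, 8.87, 8.85 and 8.80, a difference of -0.35 (SE 0.0734, adjusted p = 0.00532) under the fold threshold. Slc7a6, the related y+LAT2 and the brightest uncalled probe of its family, read 10.97 to 11.14 and then 10.58 to 11.07, with overlapping stages and a difference of -0.16 (95% interval -0.40 to 0.07). Slc7a11, the cystine-glutamate exchanger xCT, and Slc7a10 were each detected on 1 secretory array, Slc7a9 on 3 arrays, and Slc7a8 and Slc7a13 on none. Slc3a1, the heavy chain rBAT that pairs with Slc7a9 in kidney and gut, read 7.39, 6.69, 6.71 and 7.06 and then 6.95, 6.57, 6.40 and 6.31, a difference of -0.40 (SE 0.182, adjusted p = 0.153) with overlapping stages.

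**Figure D2:**
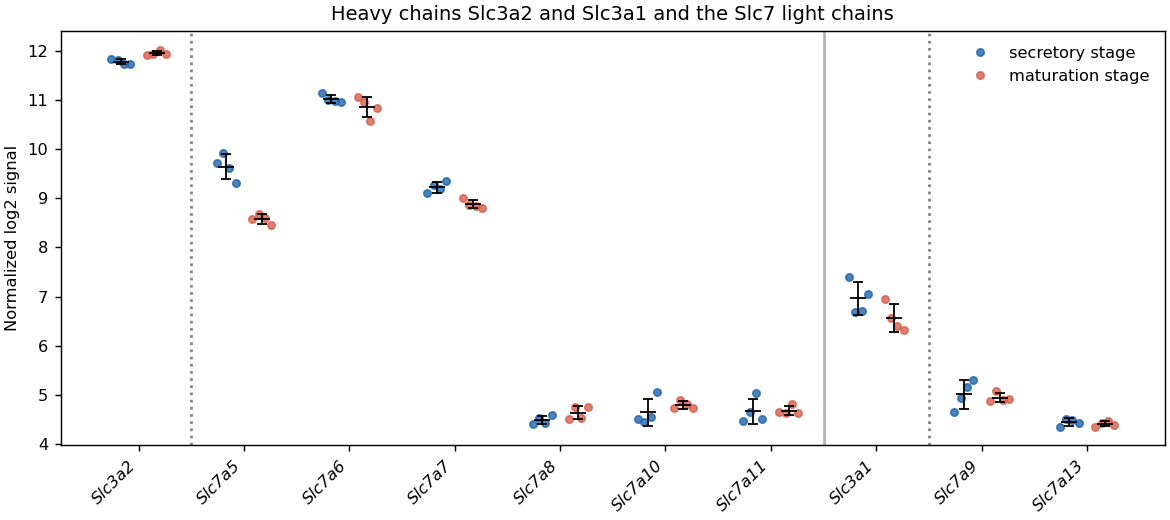
Normalized log2 signal (vertical axis) of the heavy chain Slc3a2 and the light chains known to pair with it (left of the solid line) and of Slc3a1 with Slc7a9, and Slc7a13 (right), as 4 points per stage with mean and SD. Slc7a5 drops by 1.07 while Slc3a2 stays within 11.73 to 12.02, and the lowest 5 light chains lie near the detection floor.

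Cationic carriers of the Slc7 family take up arginine, lysine and ornithine without a heavy chain. Slc7a3, the carrier CAT3, read 5.24, 5.54, 6.10 and 4.91 in the secretory stage, where 3 arrays detected it, and 4.59, 4.55, 4.60 and 4.55 in the maturation stage, where none did. The fitted change was -0.88 (SE 0.209, adjusted p = 0.0108). A probe undetected on all arrays of a stage has only a bound there, and against the lowest detected signal the level was at least 1.41-fold lower, which is less than the threshold of 1.8. The call was lost in 7 of 18 alternatives, among them the methods' test (adjusted p = 0.0555), an offset of 50 (-0.44) and leaving out secretory replicate 3, the highest of the group (-0.67), and a filter on detection left the probe untested. Slc7a2 was detected on no array, and Slc7a4, a relative with no settled substrate, read 7.03 to 7.43 over the 8 arrays with a difference of -0.11.

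Slc6 carriers move their substrate with sodium and chloride. Of 15 members 4 rose and 1 fell. Slc6a14 encodes ATB0,+, which takes up neutral and basic amino acids in airway and gut epithelium. It was detected on none of the secretory arrays, where it read 4.64, 4.64, 4.72 and 4.57, and on all maturation arrays, at 9.43, 10.39, 9.73 and 10.31. Against the detection floor it was at least 30.3-fold higher in maturation (fitted change 5.32, SE 0.195, adjusted p = 1.08e-07). That bound holds for the background correction used here: the fitted change was 4.13 with an offset of 50 and 3.13 without background correction. Slc6a15, the carrier B0AT2 of branched-chain amino acids and proline, moved the other way. Its values were 7.81, 8.27, 8.23 and 8.12 and then 6.28, 6.23, 6.19 and 6.41, a change of -1.83 (SE 0.104, adjusted p = 1.38e-06) seen in all 4 rats. The proline carrier Slc6a7 was detected on 6 arrays with a difference of -0.01, and Slc6a18 on none.

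Creatine and taurine enter cells through this family as well. Slc6a8, the creatine carrier, read 7.70, 7.90, 8.02 and 7.46 in the secretory stage and 9.80, 10.61, 10.45 and 10.16 in the maturation stage. This was a 5.59-fold rise (2.48 on the log2 scale, SE 0.181, adjusted p = 6.92e-06). Slc6a6, the taurine and β-alanine carrier, rose from 5.41, 5.39, 4.93 and 5.14 to 5.97, 6.21, 6.57 and 6.13 (change 1.01, SE 0.145, adjusted p = 0.000564). With its secretory level near the detection floor, the change was 0.61 with an offset of 50 and 0.34 without background correction, not called in either. Slc6a12, the betaine and GABA carrier, was detected on no array. Of 6 probes for the enzymes of creatine synthesis and the creatine kinases none was called. The brightest of them, for the brain-type kinase Ckb, differed by 0.51 (adjusted p = 0.00744), and Gamt, which makes creatine, by -0.54 (adjusted p = 0.00129).

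Of the 8 carriers of GABA, glycine and monoamines 1 rose. Slc6a9, the glycine carrier GlyT1, read 4.96, 5.08, 5.25 and 5.07 in the secretory stage and 6.17, 6.79, 6.67 and 6.17 in the maturation stage. Even its lowest maturation array was brighter than every secretory array, and the rise was 1.36 (SE 0.148, adjusted p = 9.3e-05). Its secretory level lay near the detection floor. The change was 0.84 with an offset of 50 and 0.48 without background correction, no longer called in either. The neuronal glycine carrier Slc6a5 and the GABA carriers Slc6a11 and Slc6a13 were detected on no array. The serotonin carrier Slc6a4 read 6.08, 6.53, 6.44 and 6.04 and then 6.04, 5.97, 6.08 and 5.58, a difference of -0.35 (SE 0.144, adjusted p = 0.111, or 0.0334 with the rat as a block) with overlapping stages. The noradrenaline carrier Slc6a2 overlapped likewise (5.53 to 6.67 and 5.49 to 6.14). The dopamine carrier Slc6a3 was detected on 3 secretory arrays and on no maturation array, at 5.15, 5.35, 5.29 and 4.80 and then 4.82, 4.40, 4.53 and 4.53. Its difference of -0.58 (adjusted p = 0.00808) was under the fold threshold, and its bound was at least 1.14-fold lower.

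Of the carriers in these families 4 load synaptic vesicles with glutamate, GABA or glycine, and 1 of these 4 was detected. Slc17a6, the vesicular glutamate carrier VGLUT2, read 7.83, 8.80, 7.99 and 7.68 in the secretory stage and 5.33, 4.95, 4.90 and 4.88 in the maturation stage, where 1 array detected it. It fell by 3.06 (SE 0.224, adjusted p = 7.02e-06). Its maturation level lay at the detection floor, so the size of the fall depends on the background: it was -2.20 with an offset of 50 and -1.46 without background correction. Without secretory replicate 2 it was -2.84, and its order with Slc38a3, at -2.96, is not settled. The other vesicular glutamate carriers, Slc17a7 and Slc17a8, and the vesicular GABA and glycine carrier Slc32a1 were detected on no array of either stage. The remaining Slc17 members carry phosphate, urate or sialic acid, and none of 4 was called. The brightest, the lysosomal sialic acid carrier Slc17a5, read 6.02, 6.53, 6.24 and 5.83 and then 5.69, 5.68, 5.18 and 5.99, a difference of -0.52 (adjusted p = 0.0741).

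Markers of nerve and Schwann cells moved with the stage in the samples that gave these values. Of 12 such probes 3 were higher in maturation and none lower: Snap25, of the vesicle fusion machinery, at least 15.7-fold, S100b by 1.20 and Pmp22 by 0.87. Their summed signal ran from 2831 to 3674 in the secretory stage and from 5445 to 6780 in the maturation stage, whereas Slc17a6 fell. Of the neuronal markers Nefl, Prph1 and Syp were undetected on all arrays, while Nef3, a neurofilament subunit, was detected on all 8 with a difference of -0.21 (adjusted p = 0.271). In a bulk sample fewer cells of a type and less RNA per cell cannot be told apart, for Slc17a6 and for every carrier here, and the part of nerve in these values was not tested.

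The sodium-coupled neutral amino acid carriers of the Slc38 family had 1 rise and 2 falls. In 5 of 6 the stages did not overlap, where 43.1% of all detected probes also did not. Slc38a1, the glutamine and alanine carrier SNAT1, rose from 7.72, 7.46, 7.28 and 7.50 to 8.16, 8.70, 8.41 and 8.58 (change 0.97, SE 0.129, adjusted p = 0.00033). Slc38a2, the closely related SNAT2 that is induced when amino acids are scarce, was among the brightest probes of the set at 12.65, 12.72, 12.58 and 12.76 and then 12.94, 13.05, 13.15 and 13.21. Its difference of 0.41 (SE 0.0743, adjusted p = 0.00237) had the same sign in each rat and was under the fold threshold. Slc38a4, SNAT4, read 7.83, 7.86, 7.83 and 7.90 and then 7.56, 7.29, 7.23 and 7.29, a difference of -0.51 (SE 0.0776, adjusted p = 0.00076), again under the threshold. These 3 genes lie next to one another on chromosome 7 in the rat assembly GRCr8, with no other protein-coding gene between them, and their changes ranged from -0.51 to 0.97.

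Slc38a3, the glutamine and histidine carrier SNAT3 that can run in both directions, fell from 8.23, 8.05, 8.11 and 7.70 to 5.39, 5.02, 5.0 and 4.86. The change was -2.96 (SE 0.137, adjusted p = 4.14e-07), and the lowest maturation array did not detect it. With the maturation level at the floor the change was -2.12 with an offset of 50 and -1.40 without background correction. Slc38a6, a member with a poorly known substrate, fell from 7.06, 7.35, 7.09 and 7.14 to 6.05, 5.78, 5.92 and 5.68 (change -1.30, SE 0.0973, adjusted p = 8.11e-06), but the change was -0.60 and under the threshold without background correction. Slc38a5, SNAT5, was the most variable carrier in the secretory stage, at 4.94, 6.80, 6.35 and 5.38, against 6.83, 6.33, 6.75 and 6.45 in the maturation stage. Its difference of 0.72 (SE 0.362, adjusted p = 0.201) had an interval from -0.09 to 1.54, and in rat 2 it had the opposite sign (-0.47).

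**Figure D3:**
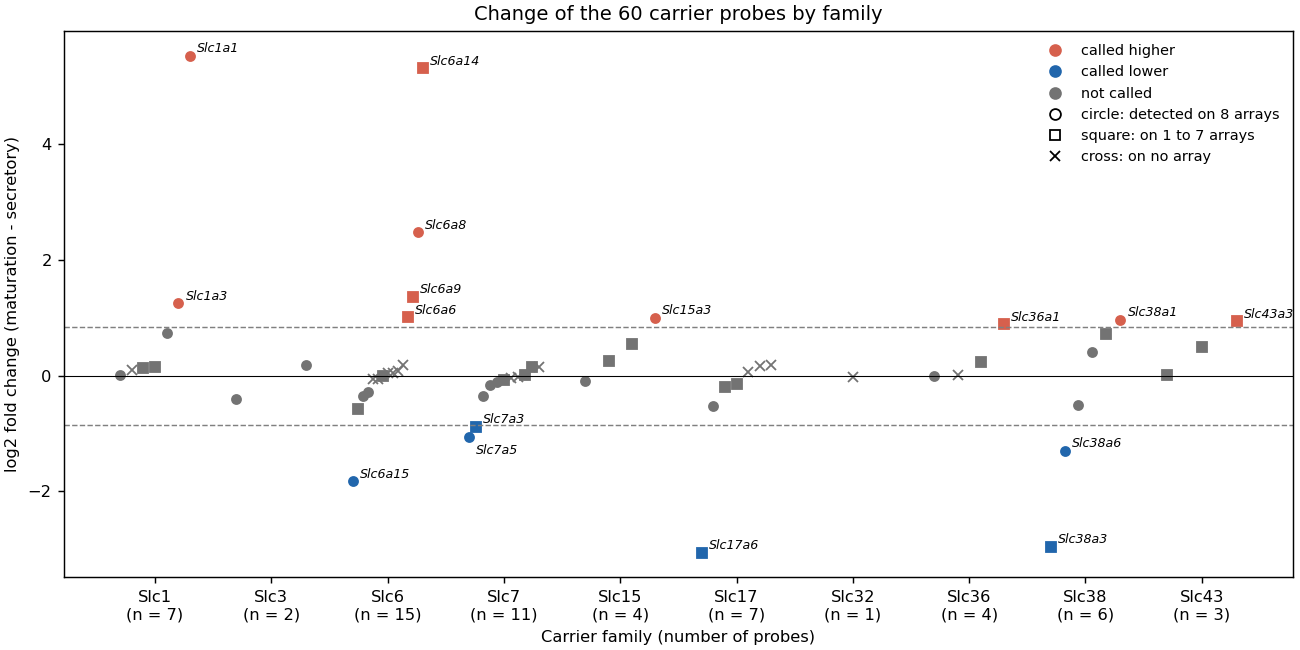
Log2 fold change of maturation against secretory (vertical axis) for the 60 carrier probes by family (horizontal axis), coloured by call, with circles for probes detected on all 8 arrays, squares for 1 to 7 arrays and crosses for none. Dashed lines mark the fold threshold of 1.8. Rises reach 5.53 in Slc1 and 5.32 in Slc6, and falls reach -3.06 in Slc17 and -2.96 in Slc38.

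Peptide carriers of the Slc15 family take up di- and tripeptides with protons or export histidine from lysosomes. Slc15a3, the lysosomal peptide and histidine carrier PHT2, rose from 6.26, 6.52, 6.38 and 6.12 to 7.48, 7.06, 7.38 and 7.38 (change 1.0, SE 0.111, adjusted p = 0.000107). Slc15a4, the related PHT1, read 9.25, 9.39, 9.35 and 9.26 and then 9.21, 9.19, 9.26 and 9.19, a difference of -0.10 (95% interval -0.23 to 0.02). Slc15a1, the intestinal peptide carrier PEPT1, was undetected in the secretory stage (4.34, 4.39, 4.77 and 4.42) and detected on 2 maturation arrays (5.13, 5.24, 4.83 and 4.90), with a fitted difference of 0.55 (adjusted p = 0.0069) under the threshold. Against the lowest detected signal its bound was 0.0 on the log2 scale, so no minimum rise can be given. Slc15a2 differed by 0.25 (adjusted p = 0.19). PHT2 is known from macrophages and other immune cells. Of 8 probes for macrophage and leukocyte markers 5 (62.5%, against 4.60% of all probes) were called higher in maturation (Cd14, Cd68, Lcp1, Ptprc and Tyrobp). None was called lower, while Aif1, at 0.85 just under the fold threshold, and Itgam (0.26, adjusted p = 0.363) were not called. The summed signal of the 8 was 3445 to 4134 in the secretory stage and 9173 to 11838 in the maturation stage, with a second Lcp1 probe undetected throughout. Whether these cells contribute to the rise of Slc15a3 was not tested.

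In the Slc36 family of proton-coupled carriers, Slc36a1, the lysosomal and plasma membrane carrier PAT1, rose from 5.26, 4.77, 4.76 and 4.93 to 5.81, 5.87, 5.65 and 5.94 (change 0.89, SE 0.116, adjusted p = 0.000308). It was detected on 1 secretory array, and the rise was close to the threshold: without secretory replicate 2 or 3 it was 0.85, and without maturation replicate 4 it was 0.83, no longer called in each case. Slc36a4 read 5.53 to 6.13 and then 5.63 to 6.10, a difference of -0.01 (95% interval -0.32 to 0.30). Slc36a3 had 2 probes, of which one was detected on no array and the other differed by 0.23 (adjusted p = 0.296).

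The Slc43 family includes sodium-independent carriers of large neutral amino acids. Slc43a3, which despite its family is known as a purine nucleobase carrier, read 4.76, 5.57, 4.97 and 4.48 in the secretory stage, where 1 array detected it, and 5.97, 5.95, 5.67 and 5.93 in the maturation stage. The rise of 0.94 (SE 0.2, adjusted p = 0.00602) was 0.80 and not called without secretory replicate 4. Slc43a2, the carrier LAT4, was undetected in the secretory stage (4.63, 4.57, 4.73 and 4.87) and detected on all maturation arrays (5.04, 5.37, 5.39 and 4.99), with a difference of 0.50 (adjusted p = 0.00728) and a bound of at least 1.11-fold higher. Slc43a1, LAT3, differed by 0.02. Neighbouring genes again differed, since Slc43a1 and Slc43a3 lie on chromosome 3 with 1 protein-coding gene between them.

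Counted at an adjusted p below 0.05 whatever the fold, 24 of the 60 carrier probes (40.0%) differed between stages, 15 higher and 9 lower, against 26.9% of all probes. Among probes detected on at least 1 array it was 53.3% of the carriers, 44.0% of all probes and 52.7% of other solute carriers, with no test of the difference. With the rat as a block there were 25, 14 higher and 11 lower, against 27.6% of all probes, with Slc3a2 lost and Slc3a1 and Slc6a4 gained. The 8 that did not reach the fold threshold in the unpaired fit were Slc1a5, Slc3a2, Slc6a3, Slc7a7, Slc15a1, Slc38a2, Slc38a4 and Slc43a2. Just inside the threshold lay Slc36a1 at 0.89 and Slc7a3 at -0.88, and just outside it Slc1a5 at 0.73. By family, the Slc1, Slc15, Slc36 and Slc43 calls were all rises, the Slc7 and Slc17 calls were falls, and Slc6 and Slc38 had both, but these are groups of 3 to 15 probes and no difference between families was tested. Of the 5 probes left out for their locus names, among them Slc38a7 and Slc6a20b by current symbol, none was called.

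Upstream sequence was taken from RefSeq (GRCr8) as the 250 bases before the start of each gene. Of the 59 genes 43 had an entry, including 10 of the 16 called. The sequences were searched on both strands for the core of the amino acid response element (TGATGNAA, bound by ATF4), the E-box of lysosomal and growth genes (CACGTG) and the AP-1 site (TGANTCA). These occurred in 3.27%, 5.79% and 6.36% of all 27457 promoters, and in 2, 6 and 5 of the 43 carrier promoters. The 4 called genes with a match are shown so that the letters can be read in place: the E-box occurred in 1 gene that rose and 1 that fell, the AP-1 site in 2 that rose and the response core in 1 that rose. Capitals mark the matched letters, which do not overlap each other.
Slc6a14 (chrX:117144676-117144925, plus strand): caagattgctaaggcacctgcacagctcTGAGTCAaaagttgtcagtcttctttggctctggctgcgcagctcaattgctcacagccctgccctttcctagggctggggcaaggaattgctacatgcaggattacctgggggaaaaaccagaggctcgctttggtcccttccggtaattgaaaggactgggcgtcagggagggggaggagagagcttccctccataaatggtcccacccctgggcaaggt
Slc38a1 (chr7:129681402-129681651, minus strand): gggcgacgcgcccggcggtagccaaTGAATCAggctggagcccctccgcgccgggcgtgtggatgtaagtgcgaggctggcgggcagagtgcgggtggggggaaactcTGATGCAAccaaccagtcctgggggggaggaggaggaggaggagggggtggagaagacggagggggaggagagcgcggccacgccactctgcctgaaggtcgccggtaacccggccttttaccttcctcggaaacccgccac
Slc36a1 (chr10:39824785-39825034, plus strand): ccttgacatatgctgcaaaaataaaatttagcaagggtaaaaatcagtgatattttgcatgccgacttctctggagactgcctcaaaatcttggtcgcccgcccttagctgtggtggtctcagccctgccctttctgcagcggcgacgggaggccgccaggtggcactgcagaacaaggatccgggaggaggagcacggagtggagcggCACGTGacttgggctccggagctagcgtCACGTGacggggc
Slc7a5 (chr19:66872413-66872662, minus strand): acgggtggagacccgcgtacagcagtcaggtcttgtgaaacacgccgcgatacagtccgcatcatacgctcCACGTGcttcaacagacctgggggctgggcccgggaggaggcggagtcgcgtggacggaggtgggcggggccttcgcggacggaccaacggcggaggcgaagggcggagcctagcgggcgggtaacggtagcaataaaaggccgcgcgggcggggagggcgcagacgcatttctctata

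Slc38a1, which rose, holds both an AP-1 match and the amino acid response core, the latter 142 bases before the start. Slc36a1, which rose, holds the E-box at 41 and 13 bases before its start, and Slc7a5, which fell, holds it at 179. Slc6a14 has an AP-1 match 222 bases before its start. The matches are letters in a window of sequence and no binding was measured. Slc1a1, Slc6a15, Slc7a3, Slc15a3, Slc38a3 and Slc43a3 have no entry.

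Genes that act with the carriers were examined as lists. Of 13 probes for further carriers (mitochondrial, lysosomal and aromatic amino acid carriers, Slc7a1, and the vesicular monoamine and acetylcholine carriers of Slc18), 2 rose and none fell: Slc25a15, the mitochondrial ornithine carrier, by 1.37 (SE 0.165, adjusted p = 0.000178), and Pqlc2, which exports basic amino acids from lysosomes, by 0.95 (SE 0.161, adjusted p = 0.00155). Slc7a1, the broadly expressed cationic carrier left out of the set, was detected on no array, and none of the Slc18 probes was called. Among 5 probes for proteins that bind or feed the carriers, Anpep, the aminopeptidase N that frees amino acids from peptides at the cell surface, rose by 2.77 (SE 0.159, adjusted p = 1.5e-06).

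Enzymes of glutamate and glutamine showed 3 rises and no fall among 10 probes. Gad1, which turns glutamate into GABA, rose by 2.17 (SE 0.138, adjusted p = 2.84e-06), the glutaminase Gls2 by 1.05 (SE 0.184, adjusted p = 0.00189) and the aspartate aminotransferase Got1 by 0.99 (SE 0.0685, adjusted p = 4.78e-06). The mitochondrial Got2 differed by 0.66 (adjusted p = 2.76e-05), under the fold threshold. Their median was 0.16 against -0.01 for all probes.

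Of 47 probes for receptors of glutamate, GABA and glycine none rose and 2 fell, and 28 were detected on no array. Gabbr2, a subunit of the metabotropic GABA receptor, fell from 7.99 ± 0.352 to 4.99 ± 0.353 (SD, n = 4; change -3.00, adjusted p = 4.74e-06), and was detected on 2 maturation arrays. Grik5, a kainate receptor subunit, fell by 0.90 (adjusted p = 0.00118) by one probe, while its other probe was detected on no array. Of the 8 probes for the amino acid response none was called, with Atf4, its central transcription factor, at 0.43 (adjusted p = 0.00365). Of 16 probes for amino acid sensing at the lysosome, through which leucine activates the growth kinase mTOR, 1 (6.25%) was called, against 7.75% of all probes. It was Nprl3 (under a locus name on the array), part of the GATOR1 complex that restrains mTOR, which fell by 0.96 (SE 0.0594, adjusted p = 2.39e-06). At an adjusted p below 0.05 whatever the fold, 3 of the 16 were higher and 5 lower, Nprl3 included.

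**Figure D4:**
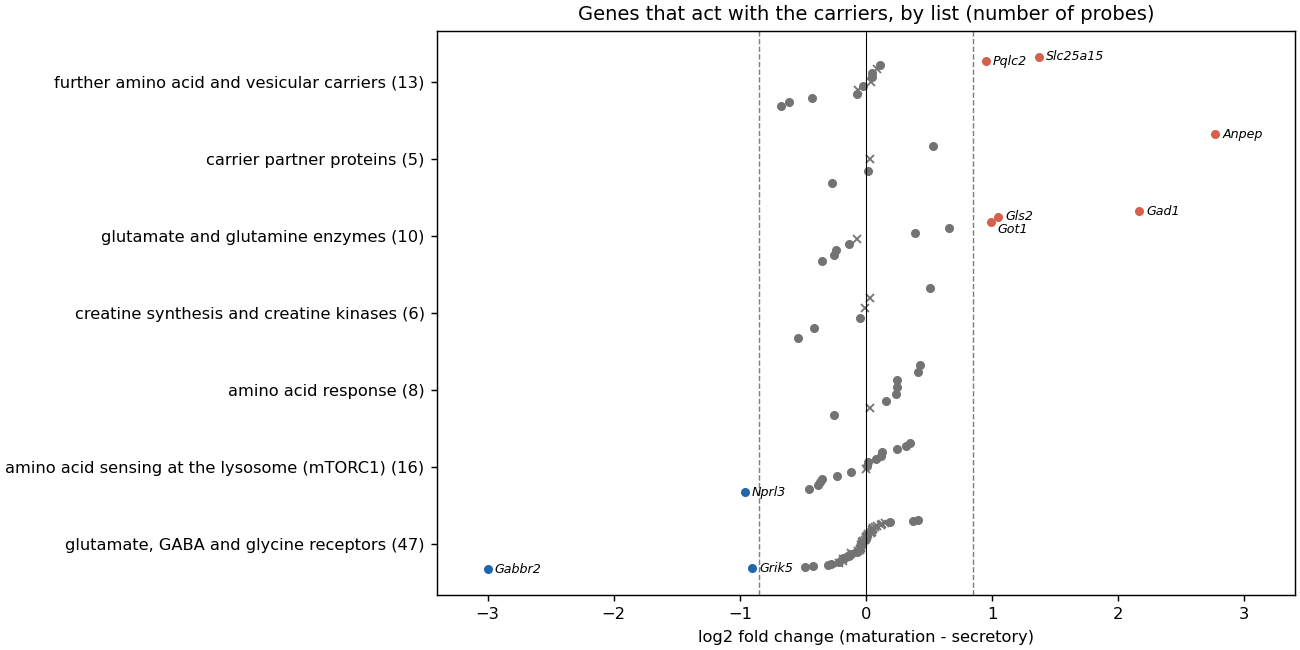
Log2 fold change of maturation against secretory (horizontal axis) for the probes of 7 gene lists that act with the carriers (vertical axis, number of probes in brackets), red for called higher, blue for called lower, grey for not called and crosses for probes detected on no array. The calls are Slc25a15, Pqlc2, Anpep, Gad1, Gls2 and Got1 to the right and Nprl3, Gabbr2 and Grik5 to the left of the dashed threshold lines.

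Markers of the other cells that may adhere to the enamel organ were read beside these lists. Bone cell markers had 2 higher of 4 probes (Ctsk and Ibsp, by 1.13 and 1.95), at a summed signal of 8115 to 23872 and 21380 to 25092, with Sp7 undetected. Endothelial markers had 1 higher of 3 (Vwf, by 0.88), at 1152 to 1775 and 2154 to 3119, with Cdh5 undetected. No probe was called among 3 for blood, 5 for skeletal muscle (Myh4 undetected) and 6 for fibroblasts. Their part in the changes of the carriers was not tested.

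The size of a change depended on how background was treated, most of all in dim probes. Without background correction 4 carriers stayed higher (Slc1a1, Slc1a3, Slc6a8 and Slc6a14), and Slc6a6, Slc6a9, Slc15a3, Slc36a1, Slc38a1 and Slc43a3 were no longer called, at changes of 0.27 to 0.68. Of the falls Slc38a6 (-0.60) and Slc7a3 (-0.29) were lost as well, and of those that stayed called Slc1a1 was at 4.81 and Slc6a15 at -1.05. Slc7a5 was at -0.73 with median scaling and at -0.53 with no normalization between arrays, under the threshold in both. None of the 16 called carriers changed sign under any alternative, and 7 of them, Slc1a1, Slc1a3, Slc6a8, Slc6a14, Slc6a15, Slc17a6 and Slc38a3, were called under all.

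**Figure D5:**
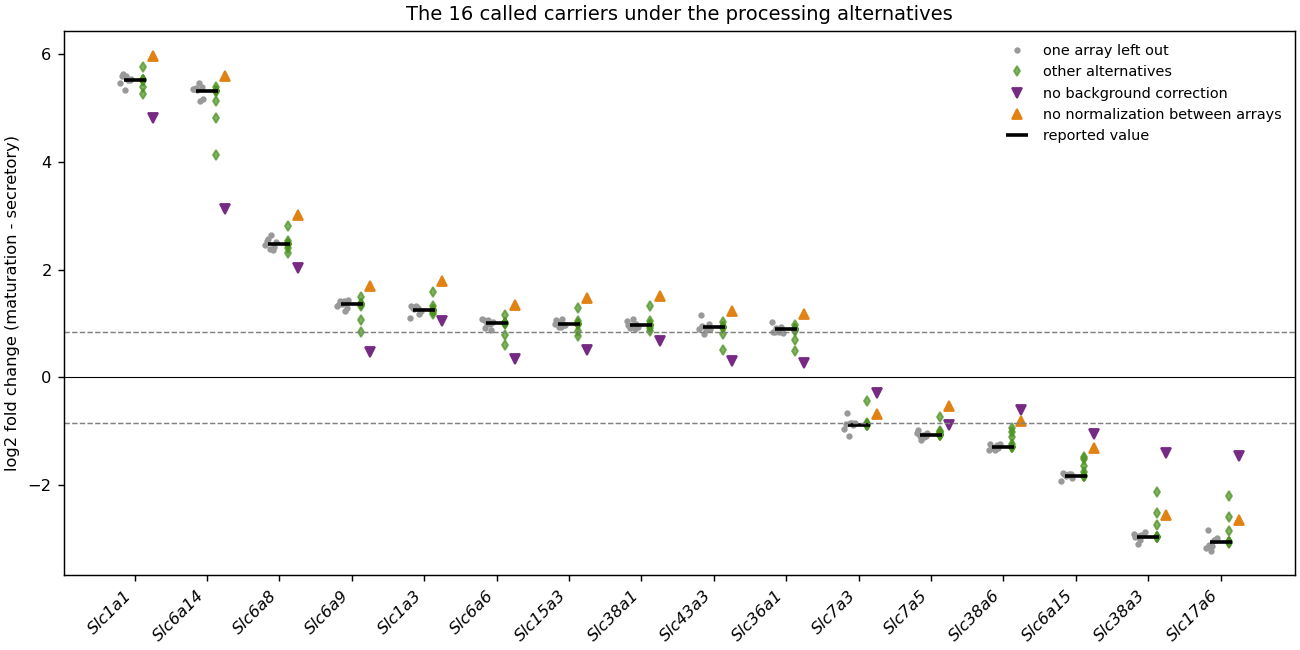
Log2 fold change of maturation against secretory (vertical axis) of the 16 called carriers as reported (black bars), with 1 array left out (grey points), without background correction (purple), with no normalization between arrays (orange) and under the other alternatives (green). Dashed lines mark the fold threshold of 1.8, and the points without background correction lie nearest to 0 for most genes, at 0.34 for Slc6a6 and -0.29 for Slc7a3.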

How the data were processed

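Total RNA was measured on 8 arrays, 4 per stage. The authors deposited bead signals as intensity values, neither background-corrected nor normalized between arrays, with a detection p-value and a count of beads (number of beads per probe, median 41 to 42). The bead summary software and the genome build are not given in the sources used here. Stage and rat came from sample titles. In limma 3.58.1 (R 4.3.3) the neqc function was used: it infers negative controls from the detection p-values for a normexp background correction, adds an offset (16), normalizes by quantiles and returns log2 signals. The stages were compared unpaired by lmFit and eBayes on the 22523 probes together, two-sided, with Benjamini-Hochberg adjustment. Where no array of a stage reached a detection p below 0.05, the probe counts as undetected in that stage, and its fold is a bound set by the dimmest detected probe of each array (normalized log2 signal 4.93 to 5.06). Read depth does not apply to array intensities, and precision is limited by the 4 arrays per stage as well as by signal over background. Exact permutation tests were run in scipy 1.17.1 under Python 3.11.15. Tested on simulated data for this comparison, limma recovered 99.5% of 200 probes changed by 1.5 on the log2 scale and called 0 of the other probes among 22523.

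The members, the 7 gene lists, the 9 lists of cell type markers and the roles of the members were chosen with earlier results of these data known. Genes named by rule were every called carrier, in each family the brightest uncalled carrier detected on all 8 arrays, the 3 carriers with an adjusted p below 0.05 nearest below the fold threshold, and the called genes of each list; the remaining carriers were named to account for the set, except for items not reported here, and the uncalled list genes Ckb, Gamt, Atf4, Got2, Amelx and Ambn after their values were seen. Current symbols came by gene ID from a RefSeq table of GRCr8, which held 58 of the 59 genes (not Slc1a7).

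Both stages came from the same rats, so replicate numbers pair the samples. The 2 samples of a rat deviated together from their stage means, at correlations over 11233 probes (detected on at least 4 arrays) of 0.195, 0.129, 0.219 and 0.234, while the mean correlation with samples of other rats was -0.0755 to -0.0416. Blocking on the rat was tried as 1 alternative. The others were normexp without negative controls, an offset of 50, no background correction, median scaling, cyclic loess, no normalization between arrays, a filter on detection on 4 arrays, the methods' t-test (two-tailed, on the same values), eBayes with trend and robust settings, folds at their bounds, genes instead of probes, and each array left out in turn.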

Additional observations from a re-analysis of the deposited data

Results flagged for a closer look

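The lowest maturation-stage array of Slc43a3, replicate 3, read 5.67 on the normalized log2 scale while the other 3 read 5.93 to 5.97. Its gap to the nearest of them was 0.89 of the range of the 4 arrays, more than Dixon's rule allows for 4 values at the 95% level. In all 48 groups of 4 arrays were examined, in which chance gives about 2.4 such values, and this was the 1 found. The maturation arrays of Slc17a6, at 5.33 against 4.88 to 4.95, lay so close to the limit that the rounded values printed here cannot settle their side.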

How the results depend on the processing

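With the rat as a replicate block, so that each maturation sample was paired with the secretory sample of the same rat, 10 carriers were higher and 6 lower, and 1750 probes were called in all, against 10, 6 and 1745 unpaired; the block changed no call of a carrier, but moved Slc3a2 past an adjusted p of 0.05 and Slc3a1 and Slc6a4 below it, all under the fold threshold. The counts of higher carriers fell to 4 without background correction and to 5 with an offset of 50, and ranged from 8 to 12 under the other alternatives. Lost with the offset of 50 were Slc6a6, Slc6a9, Slc15a3, Slc36a1 and Slc43a3. Without background correction 867 of all probes were called. The count of lower carriers fell to 3 with no normalization between arrays, where Slc7a3, Slc7a5 and Slc38a6 were lost, was 4 without background correction, where Slc7a3 and Slc38a6 were lost, and was 5 to 6 otherwise. Leaving out 1 array at a time gave 9 to 10 higher carriers, 5 to 6 lower carriers and 1705 to 1806 calls among all probes. Without secretory replicate 2 Slc36a1 was lost and Slc38a5 gained. The share of calls that were higher in maturation was 59.3% of all probes called, but 77.6% with median scaling and 87.2% with no normalization, which moved the median of all probes to 0.13. Slc1a5 passed the fold threshold under these, at 1.04 and 1.24, and Slc15a1 at 0.86 with normexp without negative controls.

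Of 469 values of named carriers under the alternatives 424 kept their direction and their side of the threshold, 29 were no longer called, 3 became called and 13 changed sign, the latter in 4 carriers that were not called. Median scaling gave 0.26 for Slc15a4, 0.21 for Slc36a4 and 0.10 for Slc7a6. No normalization gave 0.46 for Slc15a4, 0.41 for Slc36a4, 0.08 for Slc6a4 and 0.29 for Slc7a6. Slc36a4 was 0.04 with cyclic loess and ran from -0.12 to 0.08 with 1 array left out, at 0.00 without secretory replicate 1, 0.01 without secretory replicate 3, 0.08 without secretory replicate 4, 0.07 without maturation replicate 2 and 0.01 without maturation replicate 4. The causes were not tested.

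Limits come from signal over background: Slc6a3, Slc6a14, Slc7a3, Slc7a10, Slc7a11, Slc15a1 and Slc43a2 were undetected in 1 stage, and 15 carrier probes in both, so their absence cannot be stated. With 4 rats a difference near the fold threshold, as in Slc36a1, Slc43a3 and Slc7a3, can turn on 1 array.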
